A study of Bos taurus with 14 samples.

Results

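The report concerns 8 bovine genes, DECR2, NCOA7, GDAP2, CNEP1R1, TCEAL1, RNF8, IQCD and SASS6, each followed through 1 named probe of 15208 non-control probes on a custom Agilent bovine array. The 8 probes were taken by name, with no numerical cut-off, from a set put together as genes that rise with interferon tau (IFNT) in granulocytes but not in endometrial stroma. Their IFNT responses in both cell types therefore chose them, so those responses are descriptions, and threshold calls in stroma are counted only to check how the set was described. The stromal values went against that description for 2 genes, SASS6 and NCOA7, under every processing tried. For IQCD and GDAP2 they did so under most or some of it. In the processing reported here SASS6 was 2.12-fold and NCOA7 1.6-fold higher with IFNT in stroma. The genes are therefore called here by their names.

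Expression was measured in Bos taurus cells with 1 array per sample. There were 4 samples of granulocytes given IFNT for 2 h, at 1 mg/mL as the labels state it, and 4 of granulocytes given phosphate-buffered saline (PBS) for the same time. Bovine endometrial stromal cells (BES) gave 3 samples after 2 h of IFNT at the same stated dose, and 3 after PBS. The labels describe the granulocyte experiment as in vivo and in vitro and the BES experiment as in vitro, and leave unsaid whether a group's samples are different animals or cultures. Errors therefore measure the spread between these samples, which may be technical. All granulocyte arrays lay on 1 slide and all BES arrays on another, and on the granulocyte slide the IFNT samples filled array row 2 and the PBS samples array row 1. Slide cannot be told apart from cell type, nor array row from treatment in granulocytes. On the BES slide all 3 IFNT samples and PBS sample 3 lay in array row 2, and PBS samples 1 and 2 in row 1. Array row and treatment therefore coincide in large part in BES too.

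IFNT, a type I interferon made by the trophectoderm of ruminant embryos before implantation, is the signal by which pregnancy is recognised. Type I interferons act through a shared cell-surface receptor and drive interferon-stimulated genes in most cell types. Apart from NCOA7, whose short form is interferon-inducible in human cells, the 8 genes are better known for other work: lipid metabolism (DECR2, CNEP1R1), transcription (TCEAL1), the DNA damage response (RNF8), and the structure of cilia and centrioles (IQCD, SASS6). GDAP2, a protein with a macrodomain, has no settled role.

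The probe letters are given because 3 of the names rest on little more than a short transcript tag or a description. The probes were not placed on transcripts, so whether they measure the named genes was not checked. The DECR2 probe comes from a single expressed sequence tag, and the files name the NCOA7 and SASS6 probes as similar to the human genes. All 8 probes were 60 bases long, and stretches of 30 bases are shown 5′ to 3′ as the files list them, with a polyadenylation hexamer in capitals where one occurs.
DECR2: ttccttaaaaAATAAAcatcttattataaa
NCOA7: acatgcgtggcccttcatttatggatactg
CNEP1R1: aactgcagcAATAAAccctctgctcctact
IQCD: tatgacttcaacgatttttcaaaATTAAAa
SASS6: tcattttgatgtcaacttcgtaaagacttt
The DECR2 and IQCD stretches are bases 31 to 60 of their probes, and the other 3 are bases 1 to 30. The motifs searched were AATAAA and ATTAAA, on the listed strand only, and 3 of the 8 probes held 1 of them, against 14.9% of all probes on the array. The DECR2 probe is rich in A and T (25% G and C, against an array median of 43.3%). Apart from CNEP1R1, no member probe shared more than 14 consecutive bases with another probe of the array. CNEP1R1 had a second probe with the same 60 bases, printed under another transcript name, which served as a repeat spot.

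The arrays of each group were alike. Replicates correlated across probes at 0.991 to 0.996, 66.4% to 70.9% of probes in granulocytes and 71.6% to 76.1% in BES were well above background, and the 8 probes were well above background and unsaturated on all 14 arrays. Levels are log2 of the processed signal relative to the 75th percentile of that array, so that 0 is the level of that percentile and 1 unit is a factor of 2. Most cell markers followed the labels. All 10 named neutrophil markers were well above background on all granulocyte arrays, while CXCR1, CATHL1, CATHL2 and CATHL3 were so on no BES array and 5 of the 10 were so on every BES array with IFNT. All 8 named stromal markers were well above background on all BES arrays, and COL1A2, COL3A1, PDGFRA, LUM and HOXA10 were so on no granulocyte array. Another 2 of the 8 were so on every granulocyte array, and THY1 was 2.51 log2 units higher in granulocytes than in BES with PBS. Of 4 epithelial markers, EPCAM was well above background on no BES array, while the other 3 were so on all BES arrays, and with PBS KRT19 (log2 difference, granulocytes minus BES, −5.00), MUC1 (−2.77) and CDH1 (−1.98) were lower in granulocytes than in BES. The summed level of the 4 epithelial markers in BES, in multiples of the 75th percentile, was 65.0 to 71.3 with IFNT and 68.9 to 76.7 with PBS. That of the 8 stromal markers in BES was 141 to 145 with IFNT and 131 to 136 with PBS. Granulocytes also carried markers of other blood cells. The summed level of the 10 neutrophil markers in granulocytes was 826 to 908 with IFNT and 806 to 1016 with PBS. The summed level of 7 monocyte and macrophage markers there was 26.7 to 27.7 with IFNT and 28.4 to 30.9 with PBS. That of 8 T and NK cell markers was 4.56 to 4.83 with IFNT and 4.48 to 4.63 with PBS, that of 3 B cell markers 2.51 to 2.62 with IFNT and 2.33 to 2.45 with PBS, and that of 2 eosinophil markers 10.6 to 12.1 with IFNT and 13.7 to 14.5 with PBS. The summed level of 5 platelet and erythroid markers in granulocytes was 5.93 to 6.18 with IFNT and 6.14 to 6.90 with PBS. HBB among them was well above background on no granulocyte array. The part of these other cells in the changes of the 8 genes was not tested. In bulk RNA, a change in the number of cells of a type cannot be told apart from a change in RNA per cell.

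**Figure D1:**
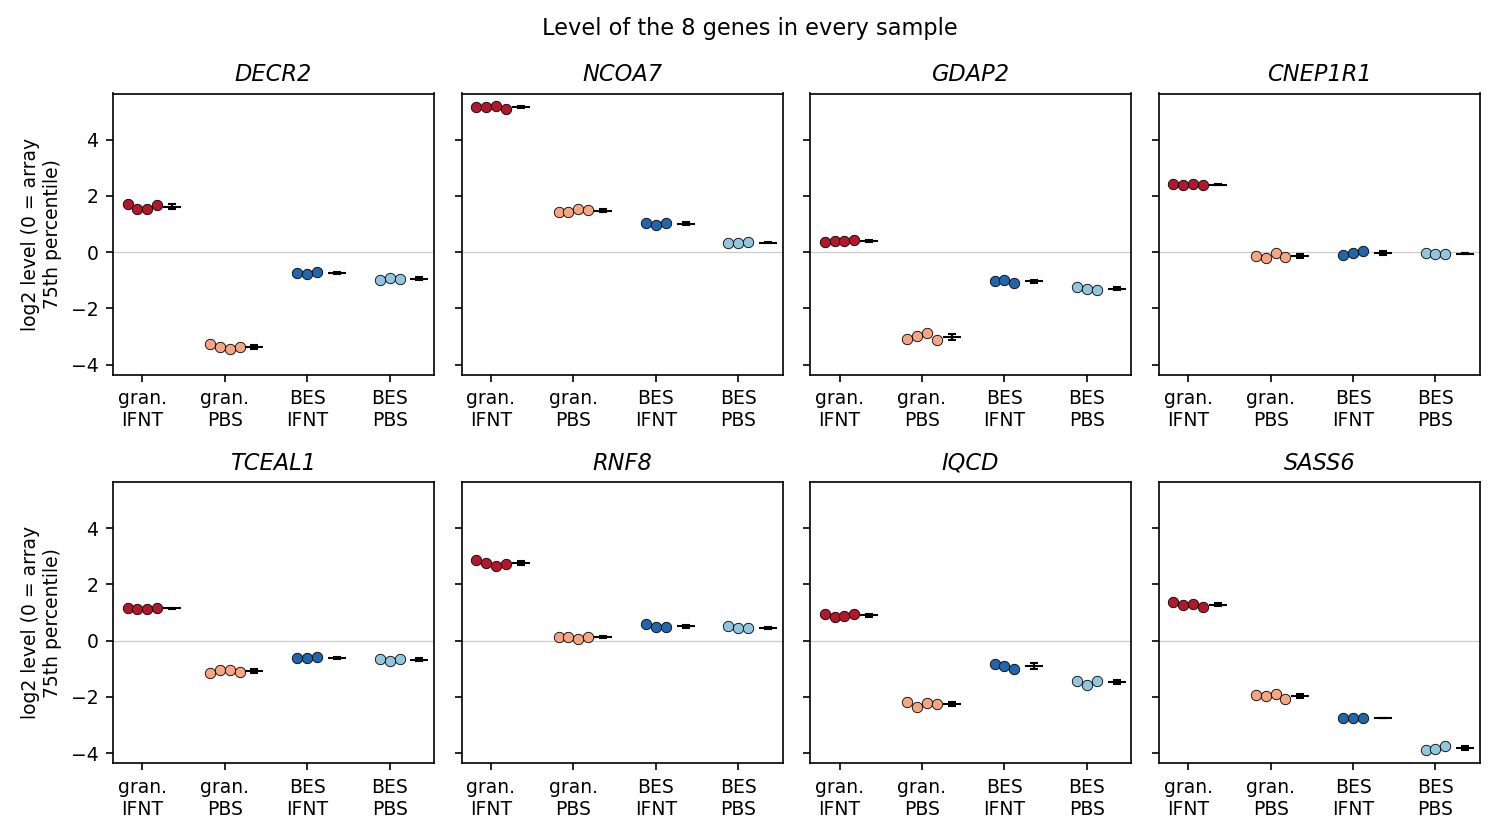
Each panel plots 1 gene. Points are single samples on the log2 scale relative to the 75th percentile of the array, for granulocytes with IFNT and PBS (4 samples each) and BES with IFNT and PBS (3 each), with the mean and SD beside them. Granulocytes with IFNT are the highest group in all 8 panels, which the choice of the genes favours. The distance between BES with IFNT and BES with PBS runs from 0.03 (CNEP1R1) to 1.08 (SASS6).

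In granulocytes all 8 genes were higher with IFNT, by log2 changes from 2.23 (TCEAL1) to 4.99 (DECR2), with a median of 3.21 over the 8 against a median of −0.05 over the 10379 probes tested. Every IFNT array lay above every PBS array for each of the 8. Of all probes tested, 16.8% showed that separation upward and 17.2% rose past an adjusted p of 0.05 (limma), and since the genes were chosen on these values nothing is read from their count.

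The lipid enzymes come first. DECR2, the peroxisomal 2,4-dienoyl-CoA reductase that prepares unsaturated fatty acids for oxidation, had log2 levels of 1.72, 1.54, 1.53 and 1.69 in granulocytes with IFNT, against −3.28, −3.36, −3.46 and −3.37 with PBS. The difference was 31.8-fold (log2 4.99 ± 0.06, SE, n = 4 against 4), the 4th largest rise of the 10379 probes. In BES its levels were −0.74, −0.79 and −0.72 with IFNT, against −1.0, −0.90 and −0.94 with PBS, a narrow gap without overlap (log2 0.20, 95% interval 0.09 to 0.31). DECR2 was the gene most sensitive to the background correction, with a granulocyte change of 4.40 under normexp.

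CNEP1R1, the regulatory subunit of the nuclear envelope phosphatase that activates the lipins in human cells, stood at 2.42, 2.39, 2.41 and 2.38 in granulocytes with IFNT, against −0.12, −0.19, −0.03 and −0.19 with PBS (5.79-fold, log2 2.53 ± 0.05). In BES it was −0.09, −0.04 and 0.05 with IFNT, against −0.04, −0.07 and −0.06 with PBS, and the groups overlapped. The BES change was 0.03, with a 95% interval of −0.09 to 0.15, so these samples leave room for a rise or fall of about that size. Its repeat spot gave 2.42, 2.48, 2.49 and 2.43 with IFNT, against −0.11, −0.07, 0.09 and −0.18 with PBS in granulocytes (log2 change 2.52 ± 0.07), and a change of 0.01 ± 0.06 in BES. The spots differed by at most 0.12 on any array, which is the largest gap and not a typical error. The repeat spot had the higher mean in each of the 4 groups (2.46 against 2.40 in granulocytes with IFNT). A steady shift of that kind cancels in a change.

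NCOA7 binds nuclear receptors and, in its short form in human cells, the proton pump of endosomes and lysosomes. Its levels were 5.16, 5.17, 5.18 and 5.10 in granulocytes with IFNT, against 1.44, 1.43, 1.52 and 1.5 with PBS, a 12.8-fold difference (log2 3.68 ± 0.04). In BES they were 1.05, 0.97 and 1.03 with IFNT, against 0.32, 0.34 and 0.35 with PBS. The BES groups were far apart for their spread, and the change there (0.68, 95% interval 0.58 to 0.78) was the 150th highest of the 11309 probes tested.

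GDAP2 had levels of 0.34, 0.40, 0.40 and 0.42 in granulocytes with IFNT, against −3.11, −3.00, −2.89 and −3.12 with PBS, a 10.7-fold difference (log2 3.42 ± 0.06). In BES it had −1.04, −0.99 and −1.09 with IFNT, against −1.25, −1.30 and −1.34 with PBS (0.26, 95% interval 0.14 to 0.37). The BES groups did not overlap, but they lay far closer together than the granulocyte groups.

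TCEAL1, a member of an X-linked family related to the elongation factor TFIIS, and RNF8, the ubiquitin ligase that marks chromatin around DNA double-strand breaks, both had BES changes whose intervals include 0. TCEAL1 had 1.17, 1.14, 1.13 and 1.15 in granulocytes with IFNT, against −1.16, −1.04, −1.03 and −1.10 with PBS (4.70-fold, log2 2.23 ± 0.04). In BES it had −0.62, −0.62 and −0.56 with IFNT, against −0.65, −0.72 and −0.65 with PBS (0.07, 95% interval −0.04 to 0.17). These BES arrays did not overlap, although the interval includes 0. RNF8 had 2.86, 2.78, 2.67 and 2.72 in granulocytes with IFNT, against 0.15, 0.14, 0.07 and 0.15 with PBS (6.20-fold, log2 2.63 ± 0.05). In BES it had 0.58, 0.49 and 0.49 with IFNT, against 0.51, 0.45 and 0.44 with PBS, with overlap (0.05, 95% interval −0.07 to 0.17).

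The cilium and centriole genes also moved in BES. IQCD, a subunit of the dynein regulatory complex of motile cilia and flagella, had 0.95, 0.85, 0.88 and 0.96 in granulocytes with IFNT, against −2.18, −2.37, −2.23 and −2.25 with PBS (8.96-fold, log2 3.16 ± 0.05). In BES it had −0.82, −0.90 and −1.02 with IFNT, against −1.42, −1.56 and −1.43 with PBS (1.47-fold, log2 0.55, 95% interval 0.38 to 0.73). SASS6, the protein that forms the centriolar cartwheel, had 1.36, 1.26, 1.30 and 1.21 in granulocytes with IFNT, against −1.92, −1.98, −1.91 and −2.08 with PBS (9.53-fold, log2 3.25 ± 0.06). In BES it had −2.74, −2.76 and −2.74 with IFNT, against −3.89, −3.85 and −3.75 with PBS. That is a log2 change of 1.08 (95% interval 0.96 to 1.21), and the largest BES change among the 8. Over 6 alternative settings of the processing it ran from 0.86 to 1.09.

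**Figure D2:**
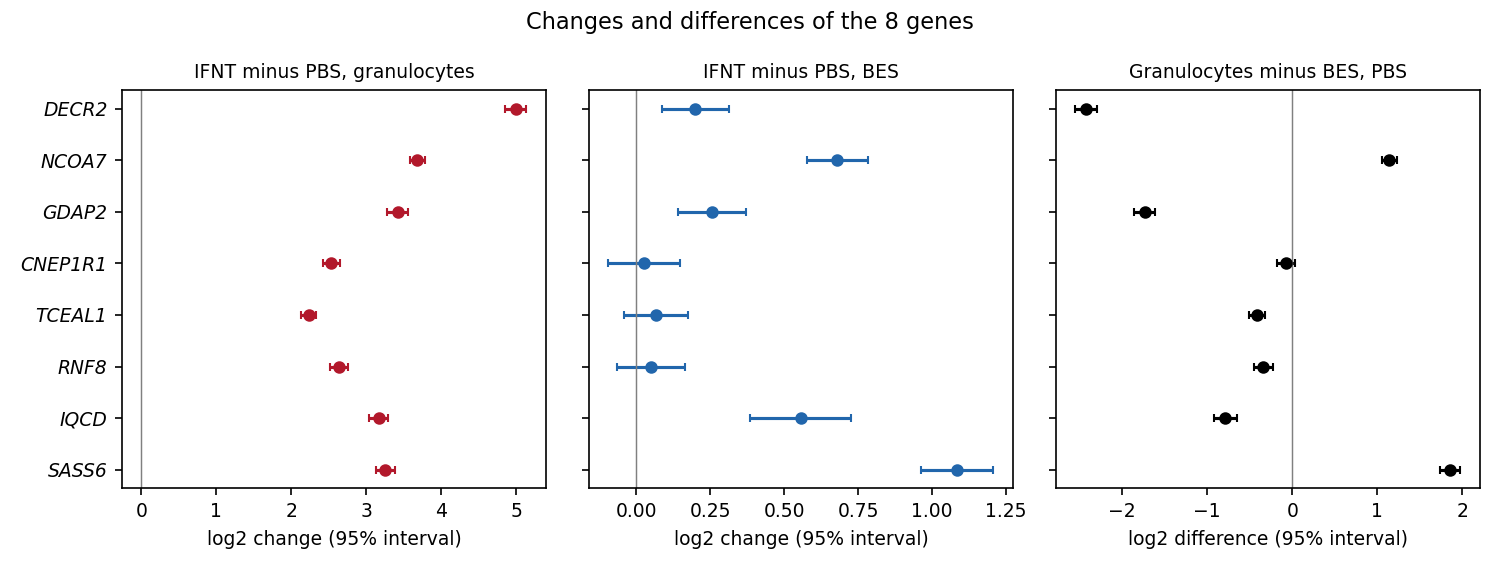
Points are log2 changes (IFNT minus PBS in granulocytes, left, and in BES, middle) and log2 differences (granulocytes minus BES, both with PBS, right) of the 8 genes, and bars are 95% intervals from limma. The horizontal scales differ between panels: granulocyte changes run from 2.23 to 4.99, BES changes from 0.03 to 1.08, and differences with PBS from −2.42 to 1.86.

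Put together, 4 of the 8 genes, NCOA7, GDAP2, IQCD and SASS6, passed an adjusted p of 0.05 in BES (limma), all upward, where 3.66% of 11309 probes passed and 2.29% passed upward (259 up and 155 down, a split that became 294 up and 322 down under normexp). The genes were chosen on this contrast as well, so the count serves only to check how the set was described. NCOA7 and SASS6 passed under all 16 alternatives run. GDAP2 lost its call when any 1 BES sample was left out, and IQCD lost its call without IFNT sample 1 or 2. With array row as a covariate, a fit that sets the BES IFNT samples against PBS sample 3 alone, 2 of the 8 passed. IFNT and PBS arrays did not overlap, upward, for 6 of the 8 in BES, against 12.5% of all probes. The median BES change of the 8 was 0.23, against −0.02 over all probes tested.

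The difference between the responses, granulocytes minus BES, was 4.79 ± 0.08 for DECR2, 3.16 ± 0.08 for GDAP2 and 3.00 ± 0.06 for NCOA7 (log2, SE, 14 arrays in 1 fit). It was 2.61 ± 0.09 for IQCD, 2.58 ± 0.07 for RNF8, 2.51 ± 0.07 for CNEP1R1, 2.17 ± 0.08 for SASS6 and 2.17 ± 0.06 for TCEAL1. The 95% intervals of SASS6 (2.00 to 2.34) and TCEAL1 (2.04 to 2.29) lay on nearly the same range, although SASS6 had the larger change in both cell types. These differences describe how the genes were picked and are not tested.

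The 8 genes were not alone in this. Among 9642 probes tested in both cell types, 354 (3.67%) rose at least 2-fold past the threshold in granulocytes, and 242 of those (68.4%) did not pass in BES. The median BES change of the 354 was 0.15, with quartiles of −0.004 and 0.56. By granulocyte change DECR2 ranked 2nd, NCOA7 13th, GDAP2 18th, SASS6 22nd and IQCD 25th among the 354, while RNF8, CNEP1R1 and TCEAL1 ranked 56th, 65th and 87th. By BES change the 8 lay at neither end of the set. Of the 354, 30.8% had a smaller BES change than CNEP1R1, the lowest of the 8, and 83.3% a smaller one than SASS6, the highest. A p past the threshold in 1 cell type and not in the other does not show that the responses differ.

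**Figure D3:**
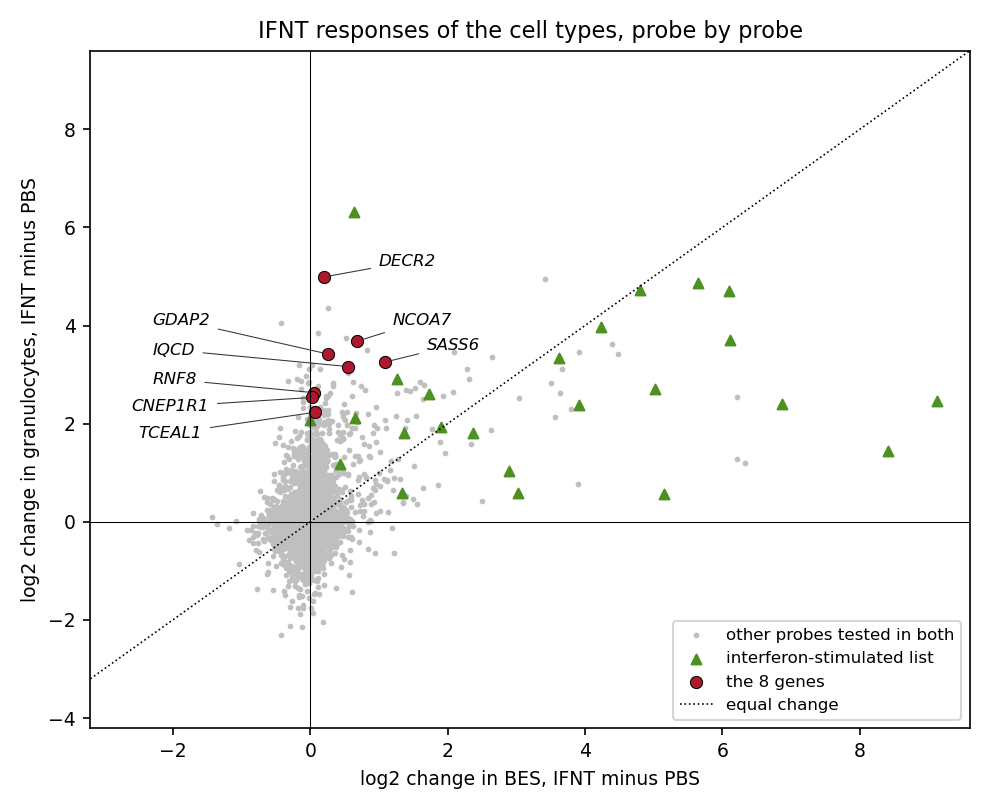
Each grey point is 1 of the 9642 probes tested in both cell types, with its log2 change in granulocytes on the vertical axis and in BES on the horizontal axis, both IFNT minus PBS. The 8 genes (red circles), chosen on these changes, lie above the line of equal change with BES changes of 0.03 to 1.08. Probes of the interferon-stimulated list (green triangles) spread to BES changes above those in granulocytes.

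A list of interferon-stimulated genes, chosen with earlier results of these data known, gives the setting for these values. In granulocytes 26 of 26 tested members rose (median log2 change 2.31), against 17.2% of all probes. CXCL10 (6.31 ± 0.05), RTP4 (4.87 ± 0.04) and PML (2.91 ± 0.05) had the smallest p. In BES 22 of 24 rose, against 2.29% of all probes, and none fell. The list's median change was 3.32 in BES, higher than in granulocytes, but over 24 genes rather than 26. LGALS9 and OAS1Z, with granulocyte changes of 2.22 and 1.82, were not tested in BES. With PBS the list already stood higher in granulocytes than in BES, by a median log2 difference of 5.69. There 25 of 26 tested genes passed as higher and 1 as lower (limma), against 46.7% and 45% of all probes, with slide and cell type coinciding. The BES changes thus start from a lower level. The medians of the 8 genes, 3.21 in granulocytes and 0.23 in BES, follow from how the genes were chosen. No contrast with the list is read from them. CXCL10, a lymphocyte-attracting chemokine, was a member of that list whose change in BES (0.64 ± 0.12) passed but was small beside its change in granulocytes. The 2 of 24 that did not pass in BES were MX2 and UBA7. MX2 had 2.12 ± 0.05 in granulocytes and 0.65 ± 0.24 in BES, and UBA7 had 2.08 ± 0.13 and −0.003 ± 0.13.

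The PBS arrays are also the baselines of the responses that chose the genes. Levels before IFNT are therefore described, and nothing is read from threshold calls on them. With PBS, DECR2 was 5.35-fold lower in granulocytes than in BES (log2 difference −2.42 ± 0.06) and GDAP2 was 3.33-fold lower (−1.73 ± 0.06). IQCD (−0.78 ± 0.06), TCEAL1 (−0.41 ± 0.04) and RNF8 (−0.34 ± 0.05) were lower too, and no array of 1 cell type overlapped those of the other for these 5 genes. SASS6 was 3.63-fold higher in granulocytes than in BES (1.86 ± 0.05) and NCOA7 2.20-fold higher (1.14 ± 0.04), again without overlap. For CNEP1R1 the arrays overlapped and the interval included 0 (−0.08, 95% interval −0.18 to 0.03), although the difference was −0.23 with scaling to the array median and −0.11 without granulocyte PBS sample 3.

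By the threshold used elsewhere, 7 of the 8 passed, 2 higher and 5 lower, where 91.7% of 12046 probes passed, 46.7% higher and 45% lower (limma, adjusted p under 0.05). The share among the 8 is near that of all probes, and nothing is read from it. Granulocyte and BES arrays with PBS did not overlap for 7 of the 8, against 90.2% of all probes. The median difference of the 8 was −0.38. Slide and cell type coincide in every one of these values.

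The order of the 4 groups differed between genes, but granulocytes with IFNT stood first for all 8. The genes were chosen on their IFNT responses, which favours that first place, so the orders are described and nothing is read from them. For DECR2, GDAP2, TCEAL1, RNF8 and IQCD the order ran from granulocytes with IFNT through BES with IFNT and BES with PBS to granulocytes with PBS, so that granulocytes held both the highest and the lowest group. CNEP1R1 had the same order of means, but its 3 lower groups overlapped one another in sequence and differed by no more than 0.08 between neighbours. RNF8 also overlapped between BES with IFNT and BES with PBS. For NCOA7 and SASS6 both granulocyte groups stood above both BES groups: granulocytes with PBS exceeded BES with IFNT by 0.46 for NCOA7 and by 0.77 for SASS6, without overlap.

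The genes with the most similar pattern were sought among 5492 named genes, by the Euclidean distance between the 4 group means after each gene was centred on its own mean. CNEP1R1 lay nearest to EDN1, the precursor of the vasoconstrictor endothelin (distance 0.11 log2 units, against a median of 2.84 to all candidates), and then to the bicarbonate transporter SLC4A5 (0.35). RNF8 lay nearest to SLC4A5 (0.18) and to PDE12 (0.28), a phosphodiesterase that degrades oligoadenylates. TCEAL1 lay nearest to PDE12 (0.27) and to the mitochondrial folate enzyme MTHFD2 (0.34). IQCD lay nearest to the macrophage growth factor CSF1 (0.24) and the interleukin subunit IL12A (0.31).

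GDAP2 lay nearest to the histone chaperone DAXX (0.49) and to MTHFD2 (0.86). SASS6 lay nearest to the ubiquitin ligase TRIM6 (0.50) and to PML (0.69), the organiser of nuclear bodies, and both of these rose in BES as well, with changes of 1.44 for TRIM6 and 1.26 for PML. NCOA7 and DECR2 had no close neighbour. NCOA7 lay 0.81 from FAM76A and 0.85 from the transcription factor FOXQ1. DECR2 lay 1.18 from CXCL10 and 1.56 from DAXX. Several of these distances rest partly on signals at background and are not exact: FOXQ1 was well above background in 1 of the 4 groups alone, IL12A on 0 and CSF1 on 1 of 4 granulocyte PBS arrays, EDN1 and FAM76A on 3 of those 4, and IL12A and FAM76A on 2 of 3 BES PBS arrays.

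The partners of the 8 genes in their own pathways were looked at in 9 lists. For fatty acid oxidation around DECR2, 2 of 9 tested genes rose in granulocytes and none fell (1 was lower at an unadjusted p under 0.05, limma): HSD17B4, a peroxisomal beta-oxidation enzyme (0.42 ± 0.06), and PHYH, which starts phytanic acid breakdown (0.20 ± 0.06). ECH1, an isomerase of unsaturated fatty acid oxidation, had −0.33 ± 0.12 and did not pass. Of the TLDc proteins and V-ATPase subunits around NCOA7, none of 13 rose, also at an unadjusted p under 0.05 (limma), and 7 fell, led by the pump subunits ATP6V1C1 (−0.72 ± 0.05), ATP6V1H (−0.24 ± 0.04) and ATP6V0B (−0.33 ± 0.07). Of 2 measured nuclear receptor coactivators, NCOA4, the ferritin autophagy receptor, fell (−0.71 ± 0.04), and the acetyltransferase EP300 had −0.19 ± 0.09 and did not pass. All of these changes were far smaller than those of DECR2 and NCOA7. Those 2 genes were chosen for their rise in granulocytes, so nothing is read from that contrast.

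Of 5 macrodomain and GDAP1-related genes, PARP9 rose (0.58 ± 0.04) and OARD1, which removes ADP-ribose from proteins, fell (−0.51 ± 0.06), while the poly(ADP-ribose) hydrolase PARG had −0.14 ± 0.05 and did not pass. Of 5 genes of lipin and nuclear envelope lipid synthesis around CNEP1R1, only the nuclear membrane protein EMD passed, downward (−0.69 ± 0.07); the acyltransferases AGPAT2 (0.07 ± 0.04) and DGAT1 (0.04 ± 0.05) did not. Of 3 TCEAL and TFIIS genes, TCEA1 fell (−0.59 ± 0.04), TCEA2 rose (0.19 ± 0.06) and TCEAL8 had 0.13 ± 0.09.

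Of 10 genes in the branch of the DNA damage response that contains RNF8, 2 rose and 4 fell. NBN, a subunit of the complex that senses double-strand breaks, rose (0.94 ± 0.04), while RNF168, the ubiquitin ligase that acts after RNF8, fell (−0.41 ± 0.06), as did BABAM1 (−0.25 ± 0.04), a subunit of a BRCA1 complex. Of 3 genes of the dynein regulatory complex and motile cilia, IQCG, another subunit of that complex, rose (1.05 ± 0.09); RSPH1 (−0.13 ± 0.08) and CCDC65 (0.20 ± 0.15) did not pass. Of 5 centriole genes around SASS6, CEP152, the scaffold for centriole duplication, rose (0.88 ± 0.13), as did the centrin CETN2 (0.27 ± 0.06), and the kinase PLK4 had 0.36 ± 0.24 and did not pass. Over these 9 lists the share of risers or fallers was not tested against that of all probes, of which 17.2% rose and 27.4% fell.

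In BES, where 3.66% of all probes tested passed, the same lists held 3 calls, and nothing is read from that number. CROT, a peroxisomal carnitine transferase, rose (0.32 ± 0.05, 1 of 10 tested), the V-ATPase subunit ATP6V0A1 fell (−0.31 ± 0.04, 1 of 14) and PARP9 rose (3.03 ± 0.05, 1 of 7). No gene passed among 2 coactivators, 6 lipin and nuclear envelope genes, 4 TCEAL and TFIIS genes, 11 genes around RNF8, 6 cilium genes and 6 centriole genes (limma). At an unadjusted p under 0.05 none passed among the coactivators and the TCEAL and TFIIS genes, 1 lipin gene was lower, 1 gene was higher and 1 lower both around RNF8 and among the cilium genes, and 2 centriole genes were lower. NBN was closest to the threshold there (0.31 ± 0.06, adjusted p 0.0501, limma).

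**Figure D4:**
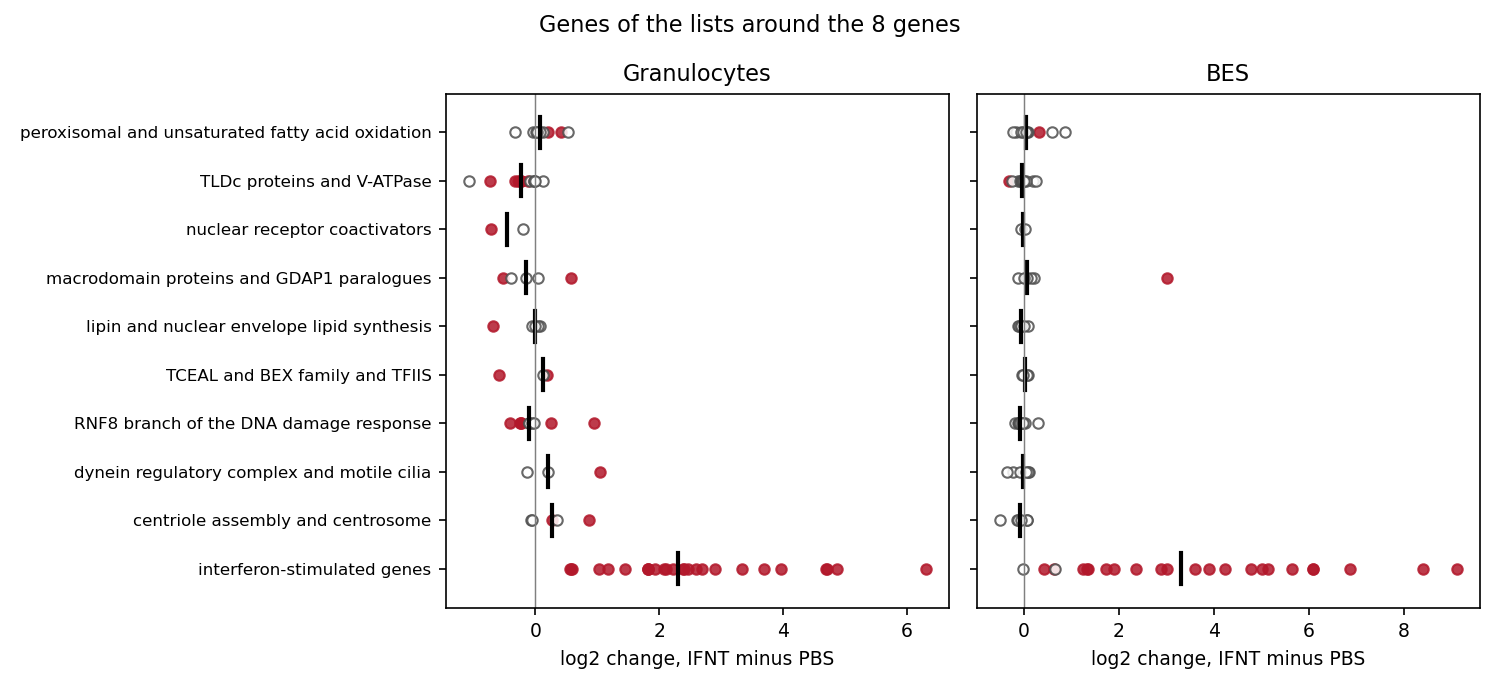
Each point is 1 gene of a list, by its log2 change with IFNT in granulocytes (left) and BES (right); filled points passed an adjusted p of 0.05 and open points did not, and the black bar is the list's median. In the 9 lists around the 8 genes the medians lie between −0.45 and 0.27 in granulocytes, against 2.31 for the interferon-stimulated list.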

How the data were processed

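Each of the 14 arrays was hybridised with Cy3-labelled RNA of 1 sample. Per the file headers and the submitters' processing notes, the authors used Agilent Feature Extraction 9.5. The deposited scanner files give intensity per spot, with the processed signal corrected by that software for spatial background and multiplicative trends, and substitute values used for spots at background. The authors' deposited value table holds log2 values, each column equal to the log2 processed signal minus 1 constant (column medians −3.42 to −3.23); how that constant was chosen is not given in the sources used here.

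Processed signals were taken to log2, the 75th percentile of the 15208 non-control probes was subtracted per array, and spots marked as outliers (0 to 5 per array) were dropped. Testing required a probe to be well above background on at least 3 BES or 4 granulocyte arrays. Tests were two-sided and used limma 3.58.1 (R 4.3.3), with Benjamini-Hochberg adjustment over all probes tested: IFNT against PBS within each cell type in its own fit, and granulocytes against BES with PBS in 1 fit of all 14 arrays. The number of arrays limits the precision. The script was tested on simulated data. Errors are SE from the fits unless stated.

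Symbols for 6819 probes came from accessions, gene numbers, names or descriptions in the files, looked up in the RefSeq table of ARS-UCD2.0; 8389 probes stayed unnamed. No genome build is given in the files and no position is stated. In lists, a gene is its brightest tested probe. The members, lists and naming rules were chosen with earlier results of these data known. The rule names the 8 genes, their other probes, the 2 nearest genes of each and up to 3 genes per list with the smallest p in granulocytes. CROT, ATP6V0A1, MX2 and UBA7 were named after their values were seen, as were the absent cell markers. Alternatives covered scaling, background correction, filters, the variance prior, the value table, array row, the replicate number and each sample left out.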

Additional observations from a re-analysis of the deposited data

Results flagged for a closer look

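Among 16 granulocyte groups of 4 samples for the 8 genes, 1 held a sample apart from the rest, RNF8 with PBS, where sample 3 (log2 level 0.07) lay below the other 3 (0.14 to 0.15). Its gap was 0.896 of the group's range, above Dixon's 95% critical value for 4 samples. Chance flags about 1 in 20 such groups.

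Of 26 pathway genes named in the report and tested for a difference between the IFNT responses (granulocytes minus BES, limma, 14 arrays in 1 fit), 13 passed an adjusted p of 0.05, where 26.5% of 12046 probes did. The log2 difference was positive for IQCG (0.95), CEP152 (0.81), NBN (0.63), HSD17B4 (0.47) and CETN2 (0.41). It was negative for PARP9 (−2.45), ATP6V1C1 (−0.72), EMD (−0.70), NCOA4 (−0.65), OARD1 (−0.57), TCEA1 (−0.55), RNF168 (−0.41) and ATP6V1H (−0.22). These genes were named for their small p in granulocytes, so a difference was favoured by how they were picked.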

How the results depend on the processing

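Probe counts in granulocytes (4633) and between cell types with PBS (11052) stayed within a factor of 1.5 under every alternative run. The BES count (414, 259 up and 155 down) did not: it was 189 with no filter on dim probes, 1011 with an intensity trend and robust prior, 149 with array row as a covariate, and 183 to 534 with 1 sample left out, at most 215 without IFNT sample 1, 2 or 3 or PBS sample 1 or 2. Under normexp its split was 294 up and 322 down. The number of the 8 genes past the threshold in BES (4) was 2 with array row as a covariate and 2 to 3 with 1 sample left out; it was 3, GDAP2 being lost, with the replicate block, quantile normalization, array median scaling and no filter on dim probes, and 5, DECR2 being gained, with an intensity trend and robust prior. Whether shared replicate numbers mark paired samples is not given, and so few samples cannot settle it. Deviations of same-numbered IFNT and PBS samples correlated at −0.08 to 0.12 in granulocytes and 0.01 to 0.03 in BES. Those of different-numbered samples correlated at −0.25 to 0.18 in granulocytes and −0.10 to 0.08 in BES. With the replicate number as a block, 4674 probes passed in granulocytes, 318 in BES and 11049 between cell types, and 7 of the 8 genes passed between cell types. With PBS, 7 or 8 of the 8 passed between cell types under every alternative, and no sign turned. Normexp lowered the granulocyte change by more than the replicate SD for 7 of the 8 genes, to 2.10 at the least (TCEAL1). The causes were not tested. Restricting the PBS comparison to probes above background on all PBS arrays, added after the data were seen, left 8470 calls.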
